A study of Mus musculus with 6 samples.

Results

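The genes described here are the enzymes of fatty acid oxidation and the genes that build and maintain peroxisomes, 38 genes chosen by symbol from the 24421 rows of the deposited expression table, by a rule that uses no measured value. They comprise 21 mitochondrial enzymes, 5 peroxisomal enzymes and 12 Pex genes, which encode peroxins. RNA came from primary proximal tubular epithelial cells of mouse kidney, cultured in medium with fetal bovine serum. The groups were 3 libraries of genotype Atg5KO and 3 of genotype Atg5F/F, the floxed control. Erastin2, a relative of erastin that inhibits the cystine importer of the cell and can trigger ferroptosis, had been given to all 6 cultures at 20 µM for 24 h. No untreated group was analysed here, so a genotype difference that exists without the drug and one that needs the drug cannot be told apart. The agent or promoter that deleted Atg5, the age of the mice and the animal behind each replicate were not stated in the sources used. The p-values reflect no more than the spread of these libraries, and that spread may be technical. All 6 libraries carry the same batch date in the labels.

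Atg5, the targeted gene, which encodes part of the machinery that conjugates LC3 to autophagosome membranes, was higher in libraries labelled Atg5KO. It averaged 12.5 ± 0.94 FPKM there and 8.55 ± 0.54 FPKM in libraries labelled Atg5F/F (SD, n = 3 each; log2 fold change 0.50, limma adjusted p = 5.5e-04). One value per gene does not reveal a deleted exon, so this level does not check the labels. The groups are therefore called KO-labelled and F/F-labelled libraries, and directions are as good as the labels. The read totals implied by the table were 16922491 to 19724355 for KO-labelled and 15528454 to 30004933 for F/F-labelled libraries.

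Of 20 markers of the proximal tubule, 8 were expressed well enough to be tested, 6 of which were lower and 1 higher in KO-labelled libraries. That is 87.5% of those tested, against 39.2% of all tested genes. Summed over all 20, the level was 285.8 to 316.5 FPKM in KO-labelled and 397.5 to 425.4 FPKM in F/F-labelled libraries. Ggt1 (-1.20) and Lrp2 (-0.60), which encodes the endocytic receptor megalin, had lower log2 levels. Ggt1 averaged 54.4 FPKM in KO-labelled and 126.5 FPKM in F/F-labelled libraries, the largest part of the summed difference. Aqp1 was the 1 gene called higher (0.35, limma adjusted p = 0.019). It was not called without KO-labelled replicate 1 (0.31, 0.064) or with no filter (0.059). Cdh6, at 156.5 FPKM in KO-labelled and 158.2 FPKM in F/F-labelled libraries, was not called (-0.02). Slc22a8 was at 0 in all 6 libraries, and Slc34a1 and Slc5a2 were under 1 FPKM throughout. Markers of fibroblasts (8 of 8) and of the loop and distal tubule (6 of 6) stayed under 1 FPKM in every library. Summed fibroblast markers were 0.24 to 0.54 FPKM in KO-labelled and 0.14 to 0.35 FPKM in F/F-labelled libraries. Summed markers of the loop and distal tubule were 0.030 to 0.049 FPKM in KO-labelled and 0.017 to 0.10 FPKM in F/F-labelled libraries. Collecting duct markers summed to 0.65 to 1.24 FPKM in KO-labelled and 0.61 to 1.26 FPKM in F/F-labelled libraries. Podocyte markers summed to 4.98 to 5.71 FPKM in KO-labelled and 4.74 to 5.59 FPKM in F/F-labelled libraries, and their 2 tested genes were called in opposite directions, Podxl higher (0.58) and Wt1 lower (-0.42). Wt1 was not called without F/F-labelled replicate 1 (-0.42, limma adjusted p = 0.083), F/F-labelled replicate 3 (-0.36, 0.11) or KO-labelled replicate 2 (-0.26, 0.057), nor with no filter (0.095). Endothelial markers summed to 7.40 to 9.02 FPKM in KO-labelled and 10.3 to 11.9 FPKM in F/F-labelled libraries, through Kdr (5.53 FPKM in KO-labelled and 9.06 FPKM in F/F-labelled libraries). Flt1, the other endothelial marker tested, was 2.12 FPKM in KO-labelled and 1.71 FPKM in F/F-labelled libraries and was not called. Leukocyte markers summed to 10.3 to 12.2 FPKM in KO-labelled and 11.0 to 13.2 FPKM in F/F-labelled libraries. Nearly all of that came from Csf1r (7.07 FPKM in KO-labelled and 7.05 FPKM in F/F-labelled libraries) and Cd68 (4.19 and 5.01 FPKM), neither of them called. The other 5 of 7, Ptprc among them, stayed under 1 FPKM in every library. What part these markers have in the results for the 38 genes was not tested. In bulk RNA, fewer cells of a type and less RNA per cell cannot be told apart.

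Long-chain fatty acids are activated to acyl-CoA, passed through the mitochondrial membranes as carnitine esters and shortened by repeated rounds of dehydrogenation, hydration, dehydrogenation and thiolysis. The electrons reach the respiratory chain through NADH and through the electron transfer flavoprotein. Peroxisomes shorten very long, branched and dicarboxylic acids with enzymes of their own, in which an oxidase takes the place of the first dehydrogenase. The proximal tubule is known to depend on fatty acid oxidation for much of its ATP and to be rich in peroxisomes. Peroxins insert peroxisomal membrane proteins, import matrix enzymes and recycle the import receptors.

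All 38 genes were expressed, with mean levels over the 6 libraries between 2.89 FPKM (Ehhadh) and 77.4 FPKM (Etfb), where FPKM is fragments scaled to gene length and library size. Each was tested with limma on log2(FPKM + 1), among the 11559 genes that reached 1 FPKM in 3 or more libraries, and was called at an adjusted p under 0.05. Fold changes are KO-labelled over F/F-labelled on that scale, which understates the change of low genes. Of the 38, 13 were lower, 2 were higher and 23 were not called. The share called, 39.5%, was near the 39.2% of all tested genes, so the number of calls says nothing particular about these genes. Among all tested genes 17.9% were called lower and 21.3% higher. The median log2 fold change was -0.09 over the 38 and 0.02 over all tested genes. Below 0 lay 27 of the 38, against 5365 of all 11559 tested genes. Groups did not overlap for 21 of the 38 (55.3%, against 51.9% of all tested genes). Of these 21, 16 were lower, against 2683 of the 5999 tested genes without overlap. The changes were small, with a median absolute log2 fold change of 0.132 for the 38 genes and 0.135 for all tested genes. In the authors' deposited table, 17 of the 38 were lower and 1 higher at an FDR under 0.05. That is 18 of 38, against 41.2% of the 11559 genes tested here and 22.0% of all 24421 rows, many of which are at 0 throughout. Cpt2 was the 1 higher gene there, and Etfdh, called higher here, had a deposited edgeR FDR of 0.13. Acadl, Pex2, Pex16 and Pex26, not called here, were lower there (edgeR FDR 0.033, 0.020, 0.028 and 0.016).

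**Figure D1:**
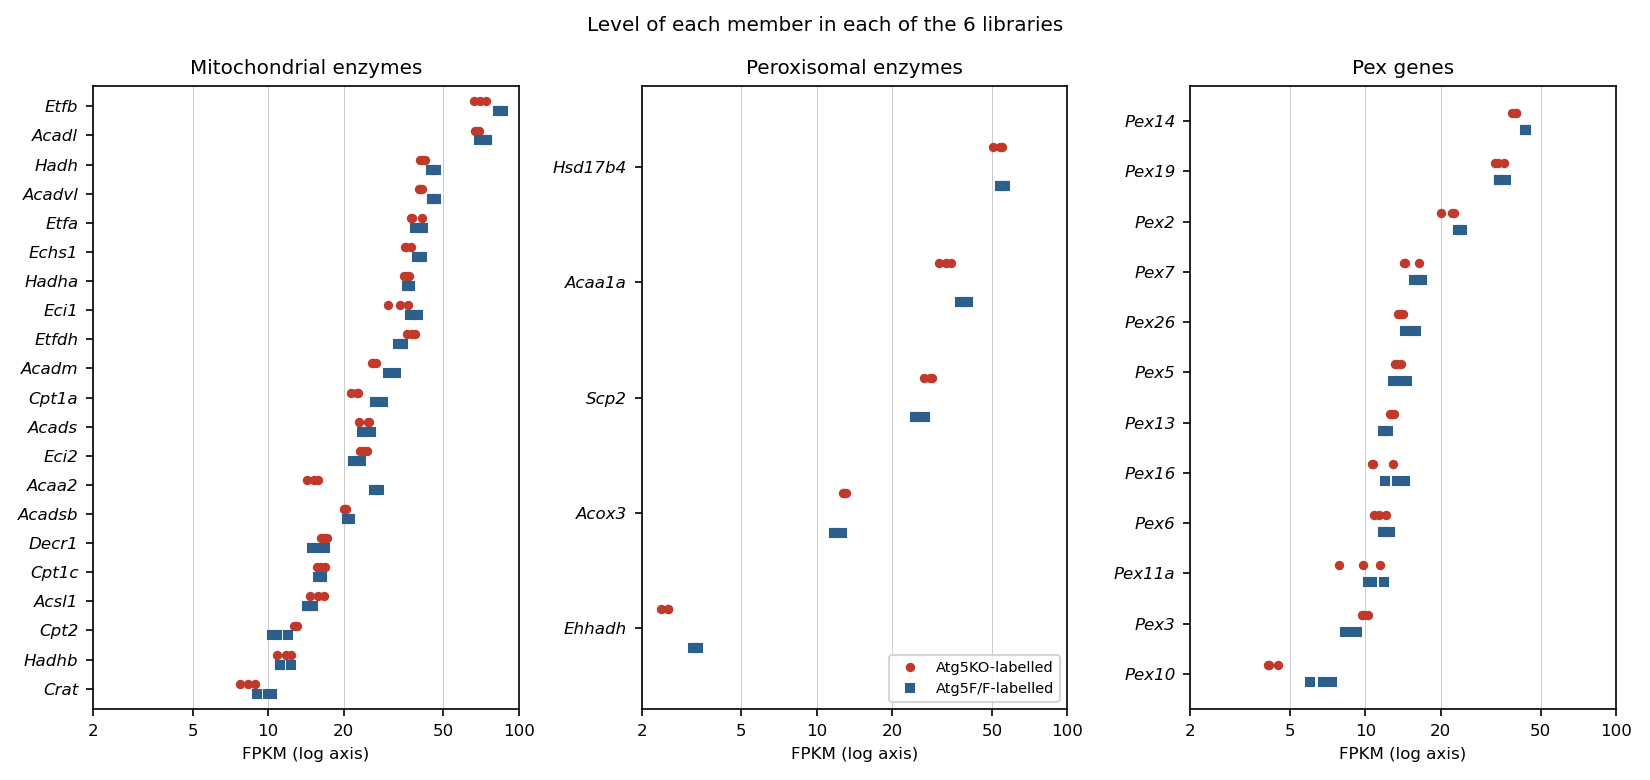
FPKM (log axis) of each of the 38 genes in each library, KO-labelled libraries as circles above and F/F-labelled libraries as squares below, in 3 panels for mitochondrial enzymes, peroxisomal enzymes and Pex genes. The widest separations are those of Acaa2 (14.3 to 15.9 FPKM in KO-labelled and 26.5 to 27.8 FPKM in F/F-labelled libraries) and Pex10 (4.09 to 4.47 FPKM in KO-labelled and 6.04 to 7.39 FPKM in F/F-labelled libraries).

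By class, 9 of the 21 mitochondrial enzymes were lower, 2 were higher and the remaining 10 missed the threshold. Their median log2 fold change was -0.06. Of the 5 peroxisomal enzymes 2 were lower and none was higher (median -0.05), and of the 12 Pex genes 2 were lower and none was higher (median -0.12). The share called was 52.4% of the mitochondrial enzymes, 40% of the peroxisomal enzymes and 16.7% of the Pex genes. Over all tested genes it was 39.2%. The median of the mitochondrial enzymes ran from -0.10 without KO-labelled replicate 1 to -0.04 without KO-labelled replicate 3, that of the peroxisomal enzymes from -0.07 without KO-labelled replicate 2 to -0.02 without KO-labelled replicate 1, and that of the Pex genes from -0.14 without KO-labelled replicate 1 to -0.08 without KO-labelled replicate 2. The summed level of the mitochondrial enzymes was 606.3 to 621.7 FPKM in KO-labelled libraries and 667.6 to 676.0 FPKM in F/F-labelled libraries, without overlap. Pex genes summed to 194.9 to 200.5 FPKM in KO-labelled and 208.8 to 213.6 FPKM in F/F-labelled libraries, also without overlap. The peroxisomal enzymes summed to 127.0 to 133.2 FPKM in KO-labelled and 131.9 to 139.6 FPKM in F/F-labelled libraries, and their groups overlapped. The sum over all tested genes was itself lower in KO-labelled libraries, at 356562 to 368374 FPKM against 375082 to 376786 FPKM in F/F-labelled libraries. Across genes, a library's deviation from the mean of all libraries went with gene length (Spearman's rho 0.11, 0.04 and 0.34 in KO-labelled replicates 1 to 3, and -0.20, -0.16 and -0.23 in F/F-labelled replicates 1 to 3). With that trend removed, all 15 calls were kept, and Pex2 and Pex26 were added to those lower.

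The 250 bases before a RefSeq transcription start are printed for 5 called genes, to show what lies upstream of the opposed pair Cpt1a and Cpt2 and of a lower gene from electron transfer, the peroxisomal enzymes and the Pex genes. They are RefSeq sequence on GRCm38.p6, at chr19:3323051-3323300 on the plus strand for Cpt1a, chr4:107923590-107923839 on the minus strand for Cpt2, chr7:43443822-43444071 on the plus strand for Etfb, chr16:21787835-21788084 on the minus strand for Ehhadh and chr4:155066780-155067029 on the plus strand for Pex10. Each runs 5′ to 3′ on the gene's own strand. The RefSeq starts of Cpt1a, Cpt2 and Pex10 used here lie inside the GENCODE spans of these genes. The spans of Cpt1a and Cpt2 are given with their values, and that of Pex10 starts at 155067016. Their stretches are thus upstream of those RefSeq starts and not of the outermost GENCODE starts. Capitals mark matches on either strand to GGGCGG, the GC box bound by Sp1 (CCGCCC on the other strand), and to CCAAT, the box bound by NF-Y (ATTGG on the other strand).
Cpt1a: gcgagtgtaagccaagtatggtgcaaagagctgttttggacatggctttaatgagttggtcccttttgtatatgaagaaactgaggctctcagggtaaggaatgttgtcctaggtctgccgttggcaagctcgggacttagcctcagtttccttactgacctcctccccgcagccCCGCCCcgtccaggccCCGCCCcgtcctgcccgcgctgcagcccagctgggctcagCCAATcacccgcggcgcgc
Cpt2: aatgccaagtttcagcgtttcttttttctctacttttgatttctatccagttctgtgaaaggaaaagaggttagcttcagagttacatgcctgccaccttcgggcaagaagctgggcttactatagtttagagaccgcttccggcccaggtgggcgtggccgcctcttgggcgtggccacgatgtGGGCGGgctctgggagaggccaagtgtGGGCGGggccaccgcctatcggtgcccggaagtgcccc
Etfb: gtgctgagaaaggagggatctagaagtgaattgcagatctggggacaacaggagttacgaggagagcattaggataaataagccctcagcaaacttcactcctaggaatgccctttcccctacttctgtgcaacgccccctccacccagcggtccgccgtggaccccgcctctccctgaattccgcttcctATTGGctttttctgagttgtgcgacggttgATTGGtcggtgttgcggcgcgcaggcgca
Ehhadh: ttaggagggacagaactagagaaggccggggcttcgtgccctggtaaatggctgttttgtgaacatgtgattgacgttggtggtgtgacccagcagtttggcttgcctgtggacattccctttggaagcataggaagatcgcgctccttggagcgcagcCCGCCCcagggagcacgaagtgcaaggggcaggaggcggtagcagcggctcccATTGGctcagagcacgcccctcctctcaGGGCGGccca
Pex10: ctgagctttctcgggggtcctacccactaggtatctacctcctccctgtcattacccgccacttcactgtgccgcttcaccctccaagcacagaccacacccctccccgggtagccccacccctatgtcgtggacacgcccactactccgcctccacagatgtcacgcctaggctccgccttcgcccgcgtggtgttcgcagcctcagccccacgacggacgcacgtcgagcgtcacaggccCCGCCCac

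Windows of 250 bases before to 50 after the start were used for 32 of the 38 genes, as 36 windows. Pex2, Decr1, Crat and Pex19 had no RefSeq entry. For the 38 genes, windows on chromosome 18 were left out, so Hsd17b4 and Acaa2, which lie there, were not looked at. The counts over all windows had no such limit. Matches on both strands were counted over all 32851 windows and over the 11174 windows of tested genes. A GGGCGG was in 28 of the 36 windows (77.8%), against 64.4% of the windows of tested genes and 35.7% of all windows. A CCAAT was in 14 of 36 (38.9%), against 37.3% and 37.4%. The direct repeat bound by PPAR and RXR, 2 copies of AGGTCA with 1 base between and at most 2 mismatches, was in 2 of 36 (5.56%, Echs1 and Etfa), against 2.83% and 3.86%. TCAAGGTCA, the element bound by estrogen-related receptors, was in 0 of 36, against 0.277% and 0.423%. CACGTG, the E-box bound by TFEB among others, was in 0 of 36, against 10.3% and 7.15%. Neither Cpt1a nor Cpt2 held the direct repeat in this window, and the GC box was in both. These are letter matches in a short window.

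At the entry of long-chain acyl groups into mitochondria, the transferases of the outer and of the inner membrane differed in direction. Cpt1a (chromosome 19, 3322334 to 3385733, GRCm38) encodes the outer-membrane carnitine palmitoyltransferase that limits the rate of entry, and its level was 21.5, 22.8 and 22.7 FPKM in KO-labelled replicates 1 to 3, against 27.0, 28.8 and 26.6 FPKM in F/F-labelled replicates 1 to 3. Every KO-labelled library lay below every F/F-labelled library, and the mean was 22.3 ± 0.72 FPKM in KO-labelled and 27.5 ± 1.1 FPKM in F/F-labelled libraries (SD, n = 3 each; log2 fold change -0.29, SE 0.045, limma adjusted p = 0.0013). Cpt2 (chromosome 4, 107903981 to 107923610, GRCm38), whose product on the inner membrane turns the carnitine ester back into acyl-CoA, stood at 12.9, 13.1 and 12.7 FPKM in KO-labelled libraries and 10.8, 12.0 and 10.4 FPKM in F/F-labelled libraries. The groups did not overlap and Cpt2 was 16.6% higher in the mean of KO-labelled libraries (log2 fold change 0.21, SE 0.056, limma adjusted p = 0.019). That call was lost without F/F-labelled replicate 1 (0.19, adjusted p = 0.056), without F/F-labelled replicate 3 (0.17, adjusted p = 0.075) and without KO-labelled replicate 1 (0.21, adjusted p = 0.052). The ratio of Cpt1a to Cpt2, a description chosen after the values were seen, was 1.66, 1.75 and 1.78 in KO-labelled libraries, against 2.50, 2.40 and 2.56 in F/F-labelled libraries.

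Cpt1c, the form best known from neurons, was placed with the mitochondrial enzymes by its family, and where its product acts was not tested. It averaged 16.3 ± 0.56 FPKM in KO-labelled and 16.2 ± 0.39 FPKM in F/F-labelled libraries and was not called (log2 fold change 0.01, 95% interval -0.09 to 0.11, limma adjusted p = 0.93). Crat, which moves short acetyl groups between CoA and carnitine, was 7.74, 8.86 and 8.31 FPKM in KO-labelled libraries and 9.03, 10.4 and 9.96 FPKM in F/F-labelled libraries. Its groups did not overlap, and it was lower (log2 fold change -0.21, SE 0.067, limma adjusted p = 0.033). Crat was not called without F/F-labelled replicate 2 (-0.17, adjusted p = 0.10), F/F-labelled replicate 3 (-0.20, 0.098), KO-labelled replicate 1 (-0.17, 0.11) or KO-labelled replicate 3 (-0.21, 0.069), nor with no filter on low values (adjusted p = 0.071). Acsl1, which activates long-chain fatty acids, was at 14.7, 15.8 and 16.7 FPKM in KO-labelled libraries and 14.3, 15.1 and 14.4 FPKM in F/F-labelled libraries. These overlapped, and Acsl1 was not called (log2 fold change 0.10, 95% interval -0.02 to 0.22, limma adjusted p = 0.17).

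**Figure D2:**
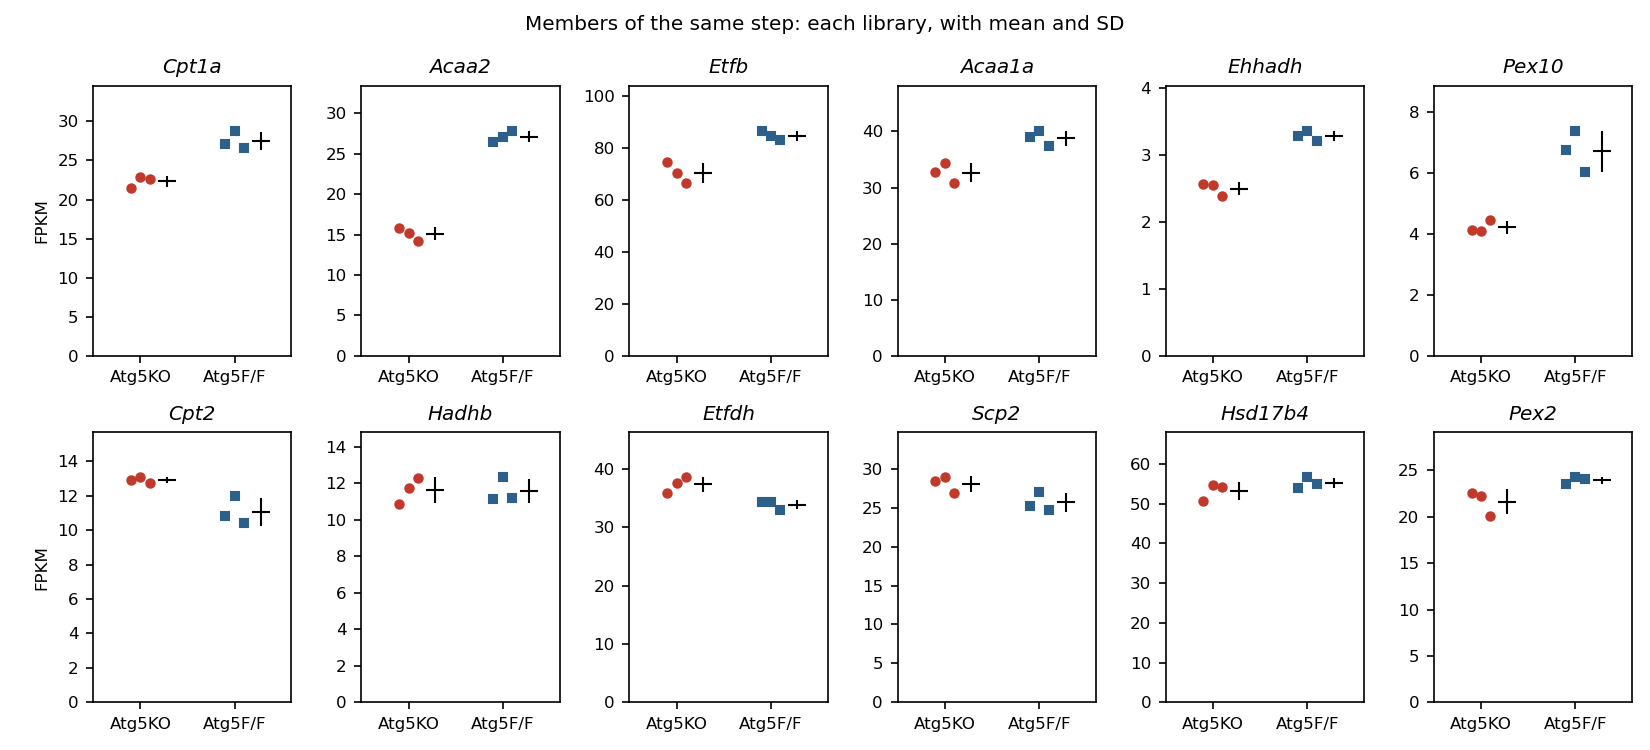
FPKM in each library (circles, KO-labelled, on the left; squares, F/F-labelled, on the right) with the mean and SD of each group (n = 3), for genes that act at the same step or in the same complex, one above the other. Cpt1a lies lower and Cpt2 higher in KO-labelled libraries, Etfb lower and Etfdh higher, and Acaa1a lower with Scp2 not called (log2 fold change 0.12).

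In the first dehydrogenation, the enzymes for medium and very long chains were lower and the enzymes for other chain lengths were not called. Acadm, the medium-chain acyl-CoA dehydrogenase, was 26.3, 26.0 and 26.9 FPKM in KO-labelled libraries, against 32.3, 31.4 and 30.2 FPKM in F/F-labelled libraries. The change in the mean was -15.8%, with no overlap (log2 fold change -0.24, SE 0.040, limma adjusted p = 0.0019). Acadvl, the membrane-bound enzyme for very long chains, was 39.8, 41.1 and 40.3 FPKM in KO-labelled libraries, against 44.9, 46.9 and 45.1 FPKM in F/F-labelled libraries. It was also lower without overlap (log2 fold change -0.17, SE 0.036, limma adjusted p = 0.0059). Exons of Dvl2 on the opposite strand cover 42.9% of the exon bases of Acadvl, and how the counting treated strand is not given, so the value of Acadvl is uncertain. How many reads this concerns was not tested. Dvl2 itself was not called (log2 fold change 0.07, limma adjusted p = 0.29). Acadl, the long-chain enzyme and the most abundant of the 5 dehydrogenases, was 69.6, 67.0 and 68.0 FPKM in KO-labelled libraries and 74.6, 69.2 and 75.0 FPKM in F/F-labelled libraries. The lowest F/F-labelled value fell within the KO-labelled range and Acadl was not called (log2 fold change -0.09, 95% interval -0.19 to 0.00, limma adjusted p = 0.11), but it was called without F/F-labelled replicate 2 (-0.13, adjusted p = 0.034). Acads and Acadsb, for short and short branched chains, were not called (-0.01 and -0.04, 95% intervals -0.12 to 0.10 and -0.13 to 0.04).

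The trifunctional protein, which carries out the later steps for long chains on the inner membrane, was not called in either subunit. Hadha, its alpha subunit, was 35.9, 34.7 and 36.6 FPKM in KO-labelled libraries and 36.0, 36.9 and 35.9 FPKM in F/F-labelled libraries (log2 fold change -0.02, 95% interval -0.10 to 0.06, limma adjusted p = 0.70). Hadhb, the beta subunit with the long-chain thiolase, was 10.8, 11.8 and 12.3 FPKM in KO-labelled libraries and 11.2, 12.3 and 11.2 FPKM in F/F-labelled libraries (log2 fold change 0.01, 95% interval -0.13 to 0.14, limma adjusted p = 0.93). Both subunits overlapped between groups, and the ratio of Hadha to Hadhb was 2.95 to 3.31 in KO-labelled and 2.99 to 3.23 in F/F-labelled libraries.

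The matrix enzymes of the later steps, Acaa2, Hadh and Echs1, were lower, Acaa2 with the largest change of the 38 genes. Acaa2 encodes the matrix 3-ketoacyl-CoA thiolase, which cuts acetyl-CoA from the chain in the last step of each round. It was 15.9, 15.2 and 14.3 FPKM in KO-labelled replicates 1 to 3, from 372 to 469 reads, against 26.5, 27.0 and 27.8 FPKM in F/F-labelled replicates 1 to 3, from 629 to 1192 reads. The groups were far apart, with means of 15.1 ± 0.81 FPKM in KO-labelled and 27.1 ± 0.66 FPKM in F/F-labelled libraries (SD, n = 3 each), a change in the mean of -44.3% (log2 fold change -0.80, SE 0.048, 95% interval -0.91 to -0.70, limma adjusted p = 7.3e-06). It ranked 180 from the lowest of 11559 fold changes, and over the 14 alternatives its log2 fold change ran from -0.84 to -0.77, called in each. The ratio of Acaa2 to Hadhb, chosen after the values were seen, was 1.46, 1.29 and 1.16 in KO-labelled libraries, against 2.37, 2.19 and 2.48 in F/F-labelled libraries.

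Hadh, the matrix 3-hydroxyacyl-CoA dehydrogenase of the step before, was 41.2, 42.1 and 40.5 FPKM in KO-labelled libraries, against 44.8, 45.1 and 46.8 FPKM in F/F-labelled libraries. It was lower without overlap (log2 fold change -0.14, SE 0.036, limma adjusted p = 0.016), and not called without F/F-labelled replicate 3 (-0.12, adjusted p = 0.078). Echs1, the short-chain enoyl-CoA hydratase, was 35.6, 37.3 and 35.1 FPKM in KO-labelled libraries, against 41.1, 40.0 and 39.1 FPKM in F/F-labelled libraries. This gene, too, was lower without overlap (log2 fold change -0.15, SE 0.039, limma adjusted p = 0.016), and the call was lost without F/F-labelled replicate 1 (-0.13, adjusted p = 0.054) or KO-labelled replicate 1 (-0.14, adjusted p = 0.054).

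Among the auxiliary enzymes that handle double bonds of unsaturated chains, Eci1 was lower and Eci2 and Decr1 were not called. Eci1, a matrix enoyl-CoA isomerase, was 36.1, 33.7 and 30.2 FPKM in KO-labelled libraries and 39.5, 36.7 and 39.2 FPKM in F/F-labelled libraries. Its groups were separated narrowly, with 36.1 FPKM the highest KO-labelled and 36.7 FPKM the lowest F/F-labelled value (log2 fold change -0.20, SE 0.063, limma adjusted p = 0.032). Eci1 was not called without F/F-labelled replicate 1 (-0.18, adjusted p = 0.091), F/F-labelled replicate 3 (-0.19, 0.095), KO-labelled replicate 2 (-0.21, 0.055) or KO-labelled replicate 3 (-0.14, 0.069), nor with no filter on low values (adjusted p = 0.073). Eci2, an isomerase found in mitochondria and peroxisomes, had a log2 fold change of 0.08 (95% interval -0.02 to 0.18, limma adjusted p = 0.19). Decr1, the matrix dienoyl-CoA reductase, also stood at 0.08 (95% interval -0.04 to 0.19, limma adjusted p = 0.26).

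The electron transfer flavoprotein, which takes electrons from the acyl-CoA dehydrogenases, and its ubiquinone oxidoreductase did not share a direction. Etfb, the beta subunit, was 74.3, 70.3 and 66.4 FPKM in KO-labelled libraries, against 86.4, 84.3 and 82.8 FPKM in F/F-labelled libraries. Every KO-labelled value was below every F/F-labelled value, and the change in the mean was -16.8% (log2 fold change -0.26, SE 0.046, limma adjusted p = 0.0025). Etfa, the alpha subunit of the same dimer, was 41.1, 37.1 and 37.6 FPKM in KO-labelled libraries and 41.4, 38.6 and 40.6 FPKM in F/F-labelled libraries, overlapped and was not called (log2 fold change -0.06, 95% interval -0.17 to 0.05, limma adjusted p = 0.37). Etfdh, the oxidoreductase that passes the electrons to ubiquinone, was 35.9, 37.6 and 38.5 FPKM in KO-labelled libraries, against 34.4, 34.4 and 32.9 FPKM in F/F-labelled libraries. It was 10.3% higher in the mean without overlap (log2 fold change 0.14, SE 0.041, limma adjusted p = 0.027). The call of Etfdh was lost without F/F-labelled replicate 3 (0.12, adjusted p = 0.11), KO-labelled replicate 2 (0.13, 0.065) or KO-labelled replicate 3 (0.12, 0.075), and with median-ratio scaling (0.12, 0.054). The ratio of Etfb to Etfdh was 2.07, 1.87 and 1.72 in KO-labelled libraries, against 2.51, 2.45 and 2.52 in F/F-labelled libraries. Etfb shares 53.0% of its 1164 GENCODE exon bases with Gm45233 on the same strand. Gm45233 is not among the deposited genes, so whether the counting included it, and whether reads of Etfb were left out, is not known. The counted length of Etfb, 904 bases, was among the shortest of the 38 genes.

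**Figure D3:**
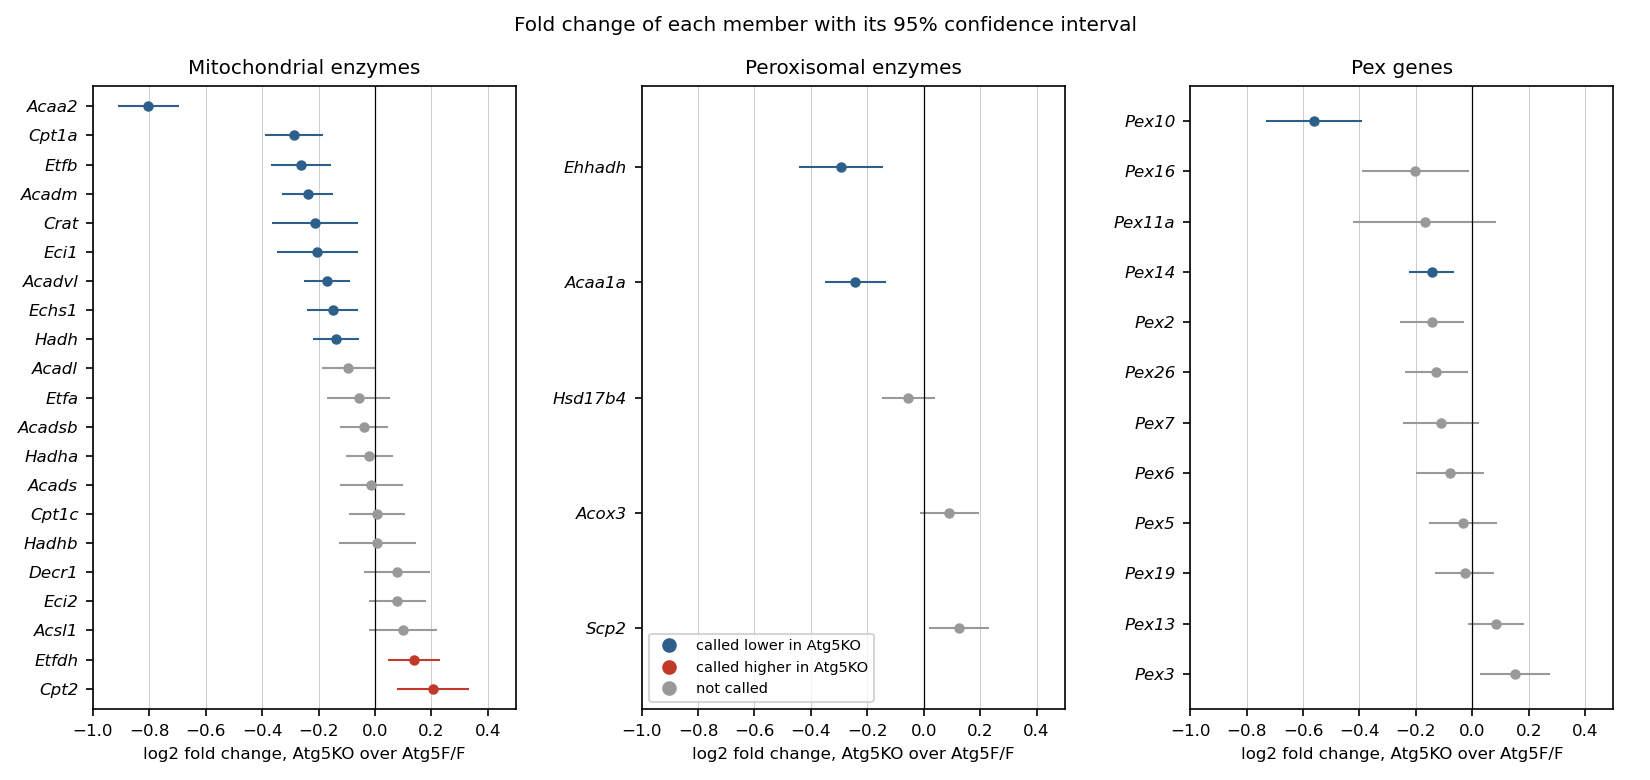
log2 fold change of KO-labelled over F/F-labelled libraries with its 95% confidence interval for each of the 38 genes, in the same 3 panels, coloured by call. The 13 lower genes run from -0.80 (Acaa2) to -0.14 (Hadh), the 2 higher are Etfdh (0.14) and Cpt2 (0.21), and 23 genes are grey.

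Of the peroxisomal enzymes, Ehhadh and Acaa1a were lower, and both belong to the branch for straight chains. Ehhadh, the multifunctional enzyme that hydrates and dehydrogenates these substrates, was expressed at the lowest level of the 38 genes, at 2.56, 2.55 and 2.39 FPKM in KO-labelled libraries, from 125 to 152 reads. In F/F-labelled libraries it was 3.29, 3.36 and 3.21 FPKM, from 157 to 297 reads. The groups did not overlap and the change in the mean was -24.0% (log2 fold change -0.29, SE 0.065, limma adjusted p = 0.0077). Acaa1a, a peroxisomal thiolase, was 32.7, 34.3 and 30.9 FPKM in KO-labelled libraries, against 38.9, 40.1 and 37.3 FPKM in F/F-labelled libraries. Its change in the mean was -15.8%, without overlap (log2 fold change -0.24, SE 0.048, limma adjusted p = 0.0045). Acaa1a has a near-identical copy, Acaa1b, at 3.37 FPKM in KO-labelled and 3.46 FPKM in F/F-labelled libraries and not called, and reads shared by the pair make both values uncertain.

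The remaining 3 of the 5 peroxisomal enzymes, Hsd17b4, Scp2 and Acox3, were not called. Outside the 5, Amacr, of branched-chain and bile acid precursor oxidation, was lower (log2 fold change -0.28, limma adjusted p = 0.017), but not without F/F-labelled replicate 1 (-0.27, 0.054) or F/F-labelled replicate 2 (-0.25, 0.054), and Hacl1, of alpha-oxidation, was lower (-0.37, limma adjusted p = 0.0040). Both were named after their values were seen. Hsd17b4, the other multifunctional enzyme, was 50.6, 54.7 and 54.1 FPKM in KO-labelled libraries and 54.0, 56.6 and 55.0 FPKM in F/F-labelled libraries, which overlapped (log2 fold change -0.05, 95% interval -0.15 to 0.04, limma adjusted p = 0.33). The ratio of Ehhadh to Hsd17b4 was 0.0441 to 0.0506 in KO-labelled and 0.0585 to 0.0609 in F/F-labelled libraries. Scp2, whose long form is the thiolase of branched chains, was 28.4, 28.9 and 26.9 FPKM in KO-labelled libraries and 25.2, 27.0 and 24.7 FPKM in F/F-labelled libraries (log2 fold change 0.12, 95% interval 0.02 to 0.23, limma adjusted p = 0.063). The groups of Scp2 overlapped at a single value, and it was called higher without F/F-labelled replicate 2 (0.16, adjusted p = 0.032) and without KO-labelled replicate 3 (0.15, adjusted p = 0.044), with the replicate number as a block (0.12, 0.035) and with voom (0.14, 0.037). The ratio of Acaa1a to Scp2 was 1.15, 1.19 and 1.15 in KO-labelled libraries, against 1.54, 1.48 and 1.51 in F/F-labelled libraries. Acox3, an oxidase of branched chains, was 12.8 to 13.1 FPKM in KO-labelled and 11.7 to 12.6 FPKM in F/F-labelled libraries, without overlap, and was not called (log2 fold change 0.09, 95% interval -0.01 to 0.20, limma adjusted p = 0.15).

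Among the peroxins, Pex10 and Pex14 were lower. Pex10 is a ring-finger subunit of the membrane ubiquitin ligase that marks import receptors for recycling. Its level was 4.12, 4.09 and 4.47 FPKM in KO-labelled replicates 1 to 3, from 114 to 134 reads, against 6.76, 7.39 and 6.04 FPKM in F/F-labelled replicates 1 to 3, from 189 to 334 reads. The highest KO-labelled value lay below the lowest F/F-labelled value, and the means were 4.23 ± 0.21 FPKM in KO-labelled and 6.73 ± 0.68 FPKM in F/F-labelled libraries (SD, n = 3 each), a change in the mean of -37.2%. Its log2 fold change was -0.56 (SE 0.075, 95% interval -0.73 to -0.39, limma adjusted p = 5.7e-04), and -0.65 to -0.50 over the 14 alternatives, called in each. Pex2, another subunit of that ligase, was 22.6, 22.2 and 20.0 FPKM in KO-labelled libraries, against 23.5, 24.2 and 24.0 FPKM in F/F-labelled libraries. Pex2 did not overlap but just missed the threshold (log2 fold change -0.14, 95% interval -0.26 to -0.03, limma adjusted p = 0.051), and it was called lower in 6 of the 14 alternatives, among them the fit without KO-labelled replicate 1 (-0.17, adjusted p = 0.045). The ratio of Pex10 to Pex2 was 0.183, 0.184 and 0.223 in KO-labelled libraries, against 0.288, 0.305 and 0.251 in F/F-labelled libraries.

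Pex14, the docking protein at which loaded receptors meet the membrane, was 40.0, 39.9 and 38.4 FPKM in KO-labelled libraries, against 43.8, 43.2 and 43.8 FPKM in F/F-labelled libraries. It was lower without overlap (log2 fold change -0.14, SE 0.035, limma adjusted p = 0.012), and not called without F/F-labelled replicate 3 (-0.14, adjusted p = 0.052). An antisense gene covers 28.3% of the exon bases of Pex14, and without the strand setting its reads cannot be told apart from those of Pex14. Pex13, its partner in docking, was 12.5 to 13.0 FPKM in KO-labelled and 11.8 to 12.3 FPKM in F/F-labelled libraries and was not called (log2 fold change 0.08, 95% interval -0.02 to 0.18, limma adjusted p = 0.16). The ratio of Pex14 to Pex13 was 3.01 to 3.19 in KO-labelled and 3.55 to 3.71 in F/F-labelled libraries.

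The import receptors Pex5 and Pex7, which read the carboxy-terminal and the amino-terminal targeting signals, were not called (log2 fold changes -0.03 and -0.11, limma adjusted p = 0.66 and 0.17). Of the genes that return receptors to the cytosol, Pex6, an AAA ATPase, stood at -0.08 and Pex26, its membrane anchor, at -0.13 (limma adjusted p = 0.26 and 0.071). Pex26 was 13.5 to 14.2 FPKM in KO-labelled and 14.3 to 15.9 FPKM in F/F-labelled libraries, without overlap, and was called in 5 of the 14 alternatives. Pex7 was called without KO-labelled replicate 1 only (-0.17, adjusted p = 0.041).

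For membrane protein insertion, Pex3, the docking factor, was 10.2, 9.66 and 9.87 FPKM in KO-labelled libraries, against 9.27, 8.27 and 8.96 FPKM in F/F-labelled libraries. Its groups did not overlap, and it was not called (log2 fold change 0.15, 95% interval 0.03 to 0.28, limma adjusted p = 0.055), though it was without F/F-labelled replicate 1 (0.18, adjusted p = 0.048) and with the replicate number as a block (0.15, adjusted p = 0.043). Pex16, a partner of Pex3, was 12.9, 10.7 and 10.6 FPKM in KO-labelled libraries and 12.0, 14.4 and 13.4 FPKM in F/F-labelled libraries. Replicate 1 of each group ran against the other replicates, the groups overlapped, and Pex16 was not called (log2 fold change -0.20, 95% interval -0.39 to -0.01, limma adjusted p = 0.084). Without KO-labelled replicate 1 (-0.28, adjusted p = 0.024) or without F/F-labelled replicate 1 (-0.27, adjusted p = 0.045) it was called lower. Pex19, the soluble chaperone of membrane proteins, was not called (-0.03, 95% interval -0.13 to 0.08, limma adjusted p = 0.67). Pex11a, which promotes division and is known as a target of PPAR-alpha, was 9.75, 7.87 and 11.4 FPKM in KO-labelled libraries, from 117 to 175 reads, and 11.8, 10.6 and 10.3 FPKM in F/F-labelled libraries. Its spread was the widest of the Pex genes (log2 fold change -0.17, 95% interval -0.42 to 0.08, limma adjusted p = 0.26), and the value ran from -0.04 without KO-labelled replicate 2 (adjusted p = 0.72) to -0.29 without KO-labelled replicate 3 (adjusted p = 0.046), the only one of the 14 alternatives to call it.

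Other genes of the pathway, outside the 38, were counted in 6 lists. Over all tested genes, 39.2% were called, 17.9% lower and 21.3% higher. Some genes, Acot2, Slc25a20 and Cd36 among them, stand on the list of PPAR-alpha targets and on another, and Hnf4a is also on that of tubule markers. Except for Ivd and Amacr, the lower and higher genes named from these lists were called in every alternative that tested them. Of 13 further genes for uptake, activation and carnitine transfer, 10 were tested, 2 were lower and 1 was higher (median log2 fold change -0.07). Slc27a2, a very-long-chain acyl-CoA synthetase and transporter, averaged 2.16 ± 0.59 FPKM in KO-labelled and 8.96 ± 2.1 FPKM in F/F-labelled libraries (-1.65, limma adjusted p = 1.3e-04). Acsl4, which activates arachidonic acid for phospholipids, was lower (-0.28, limma adjusted p = 0.0099), and Crot, the peroxisomal carnitine octanoyltransferase, was higher (0.17, limma adjusted p = 0.0091).

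Of 22 further mitochondrial acyl-CoA and ketone enzymes, 20 were tested, 9 were lower and 2 were higher (median -0.10). The share called was 55%, against 39.2% of all tested genes. The thioesterase gene Acot2 averaged 21.9 ± 2.8 FPKM in KO-labelled and 40.0 ± 1.4 FPKM in F/F-labelled libraries (-0.85, limma adjusted p = 7.6e-05), though reads shared with its near-identical neighbour Acot1 make its value uncertain. Bdh1, the 3-hydroxybutyrate dehydrogenase, stood at -0.69 (limma adjusted p = 1.4e-04), and Ivd, of leucine breakdown, at -0.30 (limma adjusted p = 0.019). Ivd was not called without F/F-labelled replicate 2 (-0.27, limma adjusted p = 0.061), without F/F-labelled replicate 3 (-0.27, 0.067) or with no filter on low values (0.056). In 38 further peroxisomal enzymes and transporters, 29 were tested, 10 were lower and 2 were higher (median -0.04). The share called there, 41.4%, was near that of all tested genes. Idh1, the NADP-dependent isocitrate dehydrogenase of cytosol and peroxisomes, averaged 16.2 ± 1.1 FPKM in KO-labelled and 26.8 ± 1.1 FPKM in F/F-labelled libraries (-0.70, limma adjusted p = 3.8e-05). Ddo, the D-aspartate oxidase (-0.48, limma adjusted p = 0.011), Abcd4, an ABC transporter now known from lysosomes (-0.47, 2.4e-04), and Ech1, a dienoyl-CoA isomerase (-0.45, 6.3e-05), were also lower. Of 10 further genes for peroxin functions, fission and tethering, 9 were tested, none was lower and Acbd5, a tether between peroxisome and endoplasmic reticulum, was higher (0.24, limma adjusted p = 0.0063). The median of that list was -0.01, and 11.1% of its tested genes were called.

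Regulators of the pathway moved in both directions. Of 19 listed, 17 were tested, 6 were lower and 3 were higher (median -0.04). The share called was 52.9%, against 39.2% of all tested genes. Hnf4a, a nuclear receptor of the differentiated tubule, averaged 3.76 ± 0.26 FPKM in KO-labelled and 7.79 ± 1.2 FPKM in F/F-labelled libraries (-0.88, limma adjusted p = 2.2e-04), and Klf15 stood at -0.63 (limma adjusted p = 0.0046). Ppargc1a, the coactivator PGC-1alpha, averaged 6.34 ± 0.30 FPKM in KO-labelled and 4.22 ± 0.46 FPKM in F/F-labelled libraries (0.49, limma adjusted p = 0.0012), and Lpin1 was higher at 0.54 (limma adjusted p = 1.4e-04). Of 19 genes known as PPAR-alpha targets, 10 were tested, 5 were lower and 1 was higher (median -0.18). The share called was 60% of those 10 genes. Acot1 (-1.18, limma adjusted p = 2.3e-05), Acot2 and Fgf21 (-0.74, 8.8e-04) were lower. Pdk4, the kinase that turns off pyruvate dehydrogenase when fat is burned, averaged 4.25 ± 0.26 FPKM in KO-labelled and 1.97 ± 0.32 FPKM in F/F-labelled libraries (0.83, limma adjusted p = 2.2e-04). Fabp1 and Cyp4a14 were listed at 0 in all 6 libraries, and Cd36 averaged under 1 FPKM in both groups.

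**Figure D4:**
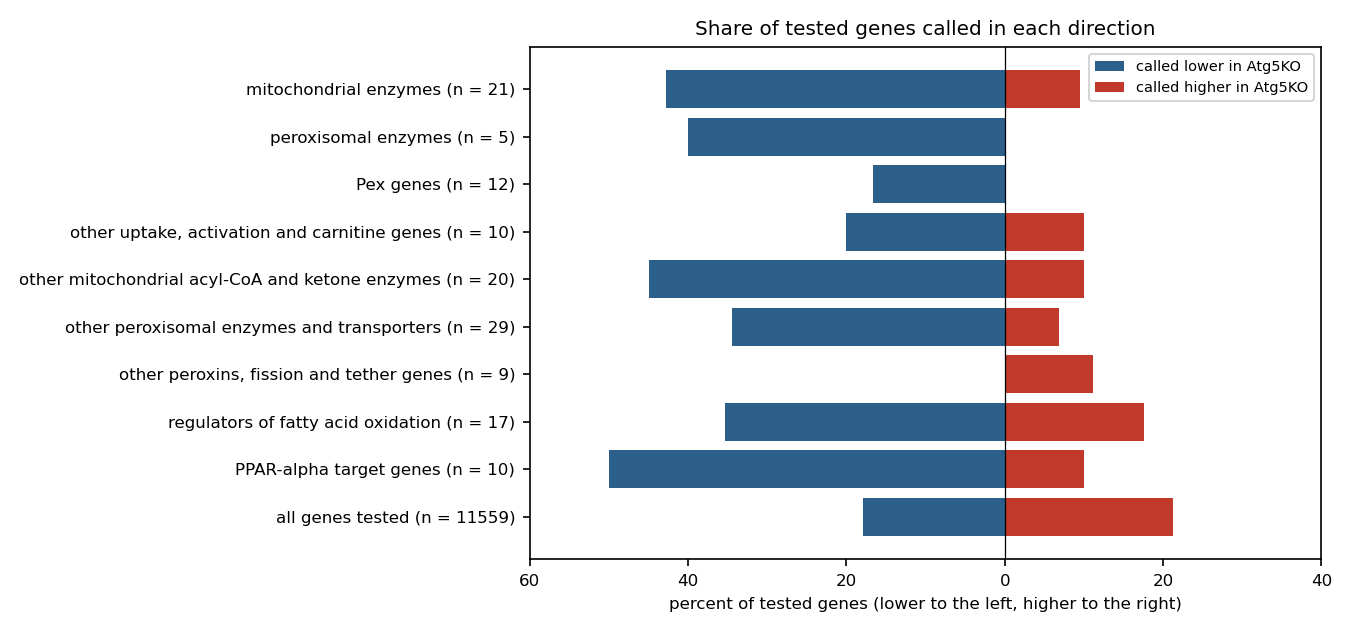
Share of tested genes called lower (bars to the left) and higher (bars to the right) in KO-labelled libraries, in percent, for the 3 classes of the 38 genes, the 6 other lists and all 11559 tested genes, with the number tested after each name. All tested genes have 17.9% lower and 21.3% higher; the 21 mitochondrial enzymes have 9 lower and 2 higher, and the 9 tested genes for peroxin functions, fission and tethering have 0 lower and 1 higher.

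Of the 15 calls among the 38 genes, 8 held in every one of the 14 alternatives that tested them (Acaa2, Cpt1a, Etfb, Acadm, Acadvl, Acaa1a, Ehhadh and Pex10), all of them lower. The other 7 (Cpt2, Hadh, Echs1, Eci1, Etfdh, Crat and Pex14) were lost in at least 1 alternative. Without F/F-labelled replicate 3, 10 of the 38 were lower and none was higher, the fewest calls of any alternative, and 9 of the 15 calls were kept. Without KO-labelled replicate 1 or 2, 1 of the 38 genes was higher, against 2 with all libraries. The F/F-labelled replicate left out that cost most calls held 22332418 reads, between the other 2 of its group.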

How the data were processed

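The authors deposited an FPKM value per gene and library, with a log2 fold change, an unadjusted p-value, an FDR and a ranking score that was not used here. Per the submitters' processing notes, the tools were bcl2fastq, then Trimmomatic (0.35), the aligner HISAT2 (2.1.0), the counter featureCounts (1.4.6) and edgeR, with GRCm38 (mm10). Libraries were stranded mRNA, per the labels' protocols. Not given in the sources used here were the annotation, strand setting and filters. Steps in the FPKM values gave back whole reads for 100% of the 18296 rows above 0, within 2.6e-04 reads, and the library totals. limma 3.58.1 in R 4.3.3 (lmFit, eBayes with a variance trend) was fitted to log2(FPKM + 1) of the 11559 genes that reached 1 FPKM in 3 or more of the 6 libraries, with Benjamini-Hochberg adjustment. It was also run on simulated reads with the same dispersion for every gene and no gene-length trend. These data do have such a trend, so that run does not show how the fit performs here. Whether same-numbered libraries form pairs was not stated, and the main fit used genotype alone. Correlations of same-numbered deviations were 0.16, 0.075 and -0.02, from too few libraries to settle it.

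All 38 genes are described, and from each other list at most 4 called genes with the largest absolute log2 fold change are named. A gene that met this rule but is not named is not reported here. Names outside these rules, among the markers, the peroxisomal genes, the regulators and the genes listed at 0, were chosen after their values were seen. The genes and lists were chosen with earlier results of these data known. As alternatives, the fit was repeated with the replicate number as a block, with 1 library left out, with 0.1 as pseudocount, unfiltered, at a minimum of 5 FPKM, with median-ratio or quantile scaling, with voom on the recovered reads, and after removing a loess trend on gene length (span 0.5) from every library. Gene coordinates and exon overlaps are from GENCODE vM21, and promoter sequences from RefSeq. Overlap shares are of all GENCODE exon bases of a gene, not of the bases counted. GENCODE and counted bases were 1164 and 904 for Etfb, 2686 and 2188 for Acadvl, and 6272 and 1942 for Pex14.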

Additional observations from a re-analysis of the deposited data

How the results depend on the processing

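Over the 14 alternatives, 472 of 531 values of single genes kept their direction and their side of the threshold, 21 lost the call, 22 gained it and 16 changed sign, all of them in genes that were not called. Acads was 0.0133 with the length trend removed and -0.0418 to 0.0259 with 1 library left out. Cpt1c was -0.00998 with the length trend removed, -0.0144 with median-ratio scaling, -0.0299 with quantile scaling and -0.0186 to 0.0284 with 1 library left out. Hadhb was -0.0114 with median-ratio scaling, -0.0169 with quantile scaling and -0.0294 to 0.0537 with 1 library left out. With 1 library left out, Hadha ran from -0.0366 to 0.000251, Pex19 from -0.0618 to 0.00372 and Pex5 from -0.0743 to 0.00844.

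Mitochondrial enzymes called higher numbered 1 with median-ratio scaling (median -0.0786) and 0 to 2 with 1 library left out (median -0.102 to -0.0397). Peroxisomal enzymes called higher numbered 1 with the replicate block and with voom, and 0 to 1 with 1 library left out (median -0.0749 to -0.0199). With the filter of 5 FPKM, which drops Ehhadh, 1 peroxisomal enzyme was lower and the median was 0.0181. Pex genes called lower numbered 4 with the length trend removed, median-ratio scaling, quantile scaling and voom, and 2 to 5 with 1 library left out. Pex genes called higher numbered 1 with the replicate block and 0 to 1 with 1 library left out. Their median was -0.139 with median-ratio scaling and -0.142 to -0.0805 with 1 library left out. The replicate block added calls of Scp2 and Pex3 and changed no other call among the 38 genes. The causes were not tested. Over all genes, 3265 to 4122 were called with 1 library left out, and 3889 with the filter of 5 FPKM to 5064 with voom, against 4530. Median-ratio scaling turned the split to 2345 lower and 2170 higher, against 2073 lower and 2457 higher. Pex11a, with 117 to 312 reads, had the largest SE of the 38 genes (0.11).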
